A study of Mus musculus with 22 samples.

Results

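The genes described are 40 genes of the cell cycle and of cell proliferation, from the D-type cyclins that act in G1 to the motors and kinases of mitosis. They were chosen by name, as the rows of the count table whose Ensembl gene ID carries 1 of the 40 symbols in the GENCODE mouse annotation, and the rule used no measured value. All 40 were found among the 53379 genes of the table, and all 40 passed the filter on low counts, as part of 40714 genes tested. The question was whether these genes, and with them the glia, showed signs of entry into the cycle 24 h after kainate, and how their levels differed between glia and neurons.

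The mRNAseq libraries came from the left hippocampus of male C57/BL6N mice, which arrived at 8 weeks of age and had 4 weeks to acclimatise. Kainate mice received 70 nl of 20 mM kainate, an agonist of glutamate receptors, above the right hippocampus, and only mice with convulsive seizures entered this group, whereas sham mice received 0.9% NaCl at the same site. Both groups, of 8 mice each, were anaesthetised with medetomidine and ketamine and given buprenorphine, and both were killed 24 h later. Left hippocampi of 2 or 4 mice were pooled into 3 pools per treatment, and nuclei of each pool were sorted by NeuN, a protein of neuronal nuclei, into a NeuN+ fraction (referred to as neurons) and a NeuN- fraction (referred to as glia), which may also hold endothelial cells, pericytes and some neurons.

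There were 3 libraries each of kainate glia, kainate neurons and sham neurons, and 2 of sham glia (replicates 1 and 3), because 1 sham glia sample failed. The protocol in the labels speaks of the right hippocampi, whereas the left side is named in the titles and in the study's methods, and was assumed. Total counts ran from 12058875 to 45428465 per library. A low input of 0.05 ng RNA, amplified over 15 PCR cycles, went into replicate 2 of kainate glia and replicate 1 of sham glia, while 1 ng and 10 cycles were used for the other 9 libraries. The 6 neuronal markers summed to 2835 to 6647 CPM (counts scaled to the size of each library, with the TMM factors of edgeR) in neurons and 465 to 745 CPM in glia, and the 6 oligodendrocyte markers to 209 to 475 CPM in neurons and 4852 to 38943 CPM in glia, so the fractions bore out their labels.

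Before the results, the glia libraries of replicate 3 stood apart. In kainate and sham glia of replicate 3, 6.13% and 8.92% of all genes had no count, against 11.5% to 30.4% in the other 9 libraries. Chemosensory receptor genes (1456 olfactory and vomeronasal receptor genes, which serve smell in the nose) had a mean of 0.558 and 0.537 CPM per kb of exon in these 2 libraries, against 0.0824 to 0.286 CPM per kb in the others. The same 2 libraries had the lowest sums of oligodendrocyte markers among glia, at 4852 and 8752 CPM, against 11653 to 38943 CPM in the other 3 glia libraries. The part of these differences in the results below was not tested, and counts of members called are also given without both libraries.

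A cell that enters the cycle first makes D-type cyclins, which activate Cdk4 and Cdk6 and so release the E2F transcription factors from the retinoblastoma protein. E2F then turns on cyclin E, the licensing factors and the helicase for DNA replication, and a later wave of genes, repressed in resting cells by the DREAM complex through the CHR promoter element, brings about mitosis. In the adult hippocampus, oligodendrocyte precursors and the progenitors of the dentate gyrus are known to divide, while mature neurons and most astrocytes rest, and microglia and astrocytes can divide after injury. Because the libraries are bulk samples, fewer cells of a type and less RNA per cell cannot be told apart.

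The promoters of 2 members, Cdt1 and Plk1, are shown because these were the members with the smallest p for kainate against sham in glia, and that of Mki67 because its protein, Ki-67, is the common marker of cycling cells. Each window holds 250 bases before and 50 bases from the transcription start on, 5′ to 3′ on the strand of the gene, from RefSeq on GRCm38.p6, and capitals mark the motifs that a search found. The motifs searched on both strands were the CHR (TTTGAA), the CCAAT box (CCAAT) and 2 forms of the E2F site (TTCCCGC and TTTGGCGC).
Cdt1, chr8:122567765-122568064, plus strand: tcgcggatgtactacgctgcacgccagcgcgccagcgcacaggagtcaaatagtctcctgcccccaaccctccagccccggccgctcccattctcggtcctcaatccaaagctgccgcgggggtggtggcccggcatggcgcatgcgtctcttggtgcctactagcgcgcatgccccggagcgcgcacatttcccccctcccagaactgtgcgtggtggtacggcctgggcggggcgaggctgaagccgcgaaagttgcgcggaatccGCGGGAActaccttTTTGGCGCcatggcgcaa
Plk1, chr7:122159185-122159484, plus strand: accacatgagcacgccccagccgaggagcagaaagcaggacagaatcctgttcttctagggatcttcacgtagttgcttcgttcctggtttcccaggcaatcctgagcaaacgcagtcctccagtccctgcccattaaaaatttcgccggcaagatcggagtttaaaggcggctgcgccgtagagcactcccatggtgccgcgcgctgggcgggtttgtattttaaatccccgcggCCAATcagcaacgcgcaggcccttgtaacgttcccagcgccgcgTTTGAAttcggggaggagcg
Mki67, chr7:135716330-135716629, minus strand: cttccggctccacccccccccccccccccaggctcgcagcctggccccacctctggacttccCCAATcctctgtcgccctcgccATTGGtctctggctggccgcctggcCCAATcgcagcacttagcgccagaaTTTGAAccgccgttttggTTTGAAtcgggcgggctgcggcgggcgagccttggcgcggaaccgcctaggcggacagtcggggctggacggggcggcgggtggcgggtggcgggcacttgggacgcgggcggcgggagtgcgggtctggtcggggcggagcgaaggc

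In the Cdt1 window the capitals mark 1 match to each form of the E2F site, both after the start. In the Plk1 window they mark 1 CCAAT box and 1 CHR, and in the Mki67 window 3 CCAAT boxes and 2 CHR. Windows were found for 32 of the 40 members (35 windows, since some genes have more than 1 start). Of these, 34.3% held a CHR, 74.3% a CCAAT box and 28.6% an E2F site of either form, against 17.9%, 37.4% and 5.1% of all 32851 promoter windows of the same length. A match describes the letters of the window and not a bound site.

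**Figure D1:**
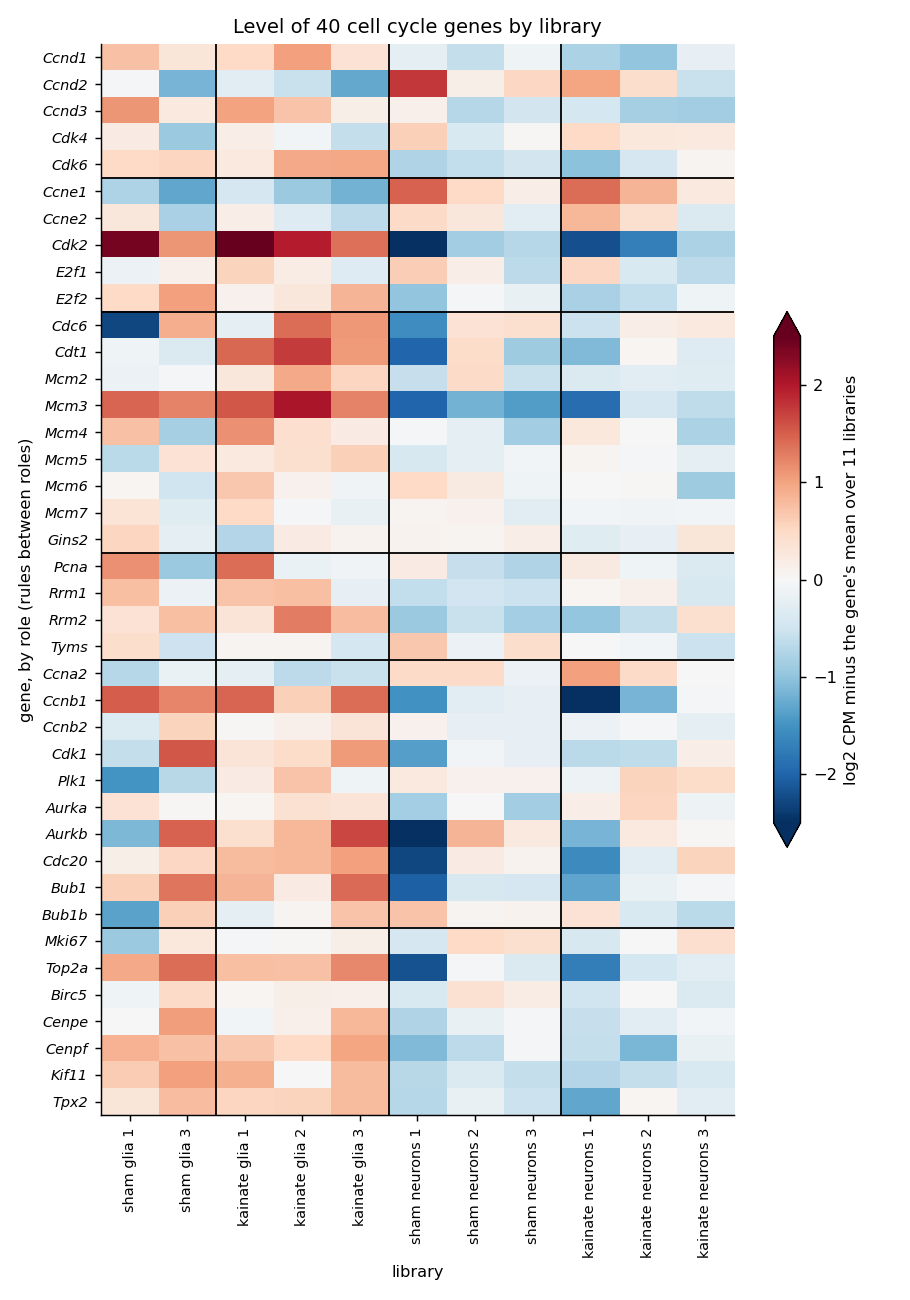
Level of the 40 genes (rows, in 6 roles) in each of the 11 libraries (columns, by group), as log2 CPM minus the mean of that gene over the 11 libraries; red is above and blue below the mean, and the colour scale ends at 2.5 in each direction. Cdk2, Mcm3 and Ccnb1 are blue in most neuron columns and red in most glia columns, with log2 fold changes between the cell types of -3.44, -2.66 and -2.004.

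Kainate did not move any of the 40 genes past the threshold in glia. By edgeR's quasi-likelihood test, 0 of 40 were called at an FDR below 0.25, the threshold of the study, beside 0.101% of all genes tested. DESeq2 also called 0 of the 40, beside 179 higher and 55 lower of all 40714 genes. At an unadjusted p below 0.05, 2 were higher (Cdt1 and Plk1) and 0 lower, and 1.35% of all genes were higher at that level. The log2 fold changes of the 40 ran from -0.34 to 1.67 with a median of 0.12, against a median of 0.02 over all genes, and 24 of the 40 were above 0. In neurons, edgeR again called 0 of 40, and 0 had an unadjusted p below 0.05, beside 0.165% and 2.09% of all genes. DESeq2 called 0 of the 40 there, beside 272 higher and 60 lower of all 40714 genes. A fit of each cell type on its own also called 0 of the 40, beside 0% of all genes in glia and, in neurons, 1.07% higher and 0.218% lower. The log2 fold changes in neurons ran from -0.57 to 0.71 with a median of -0.01, against -0.02 over all genes.

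Only part of the genes could be bounded tightly. The 95% interval of the log2 fold change ended below 1, that is below a 2-fold rise, for 15 of the 40 in glia and for 19 in neurons, and for the others a 2-fold rise lay within the interval. The median standard error was 0.49 in glia and 0.44 in neurons. Where the values of kainate and sham glia did not overlap, kainate was higher for 4 members (Cdt1, Mcm2, Plk1 and Cdc20) and lower for 0, and 4.7% of all genes separated in the higher direction. Of all 40714 genes, 1434 separated in the lower direction. In neurons 1 member, Rrm1, separated with kainate higher, beside 4.26% of all genes. With the replicate number as a block, which assumes that the numbers pair the samples, edgeR called 1 member in glia. This was Cdt1 (log2 fold change 1.49 ± 0.39 SE, adjusted p = 0.0189), beside 2.93% of all genes that were called higher in that fit. The same fit called 0 members in neurons, beside 5.09% of all genes in either direction. In neurons 4 members had an unadjusted p below 0.05 with the block, beside 9.01% of all genes, with Aurka higher (0.74) and Ccnd2 (-0.53), Tyms (-0.52) and Mcm6 (-0.48) lower, all as log2 fold changes at adjusted p-values of 0.257 to 0.462. Without both glia libraries of replicate 3, 0 members were called in glia and 0 in neurons, beside 0.137% and 0.542% of all genes. That setting, like those without sham glia replicate 3 alone or without both low-input libraries, leaves 1 sham glia library, which is assumed to vary like the other groups.

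**Figure D2:**
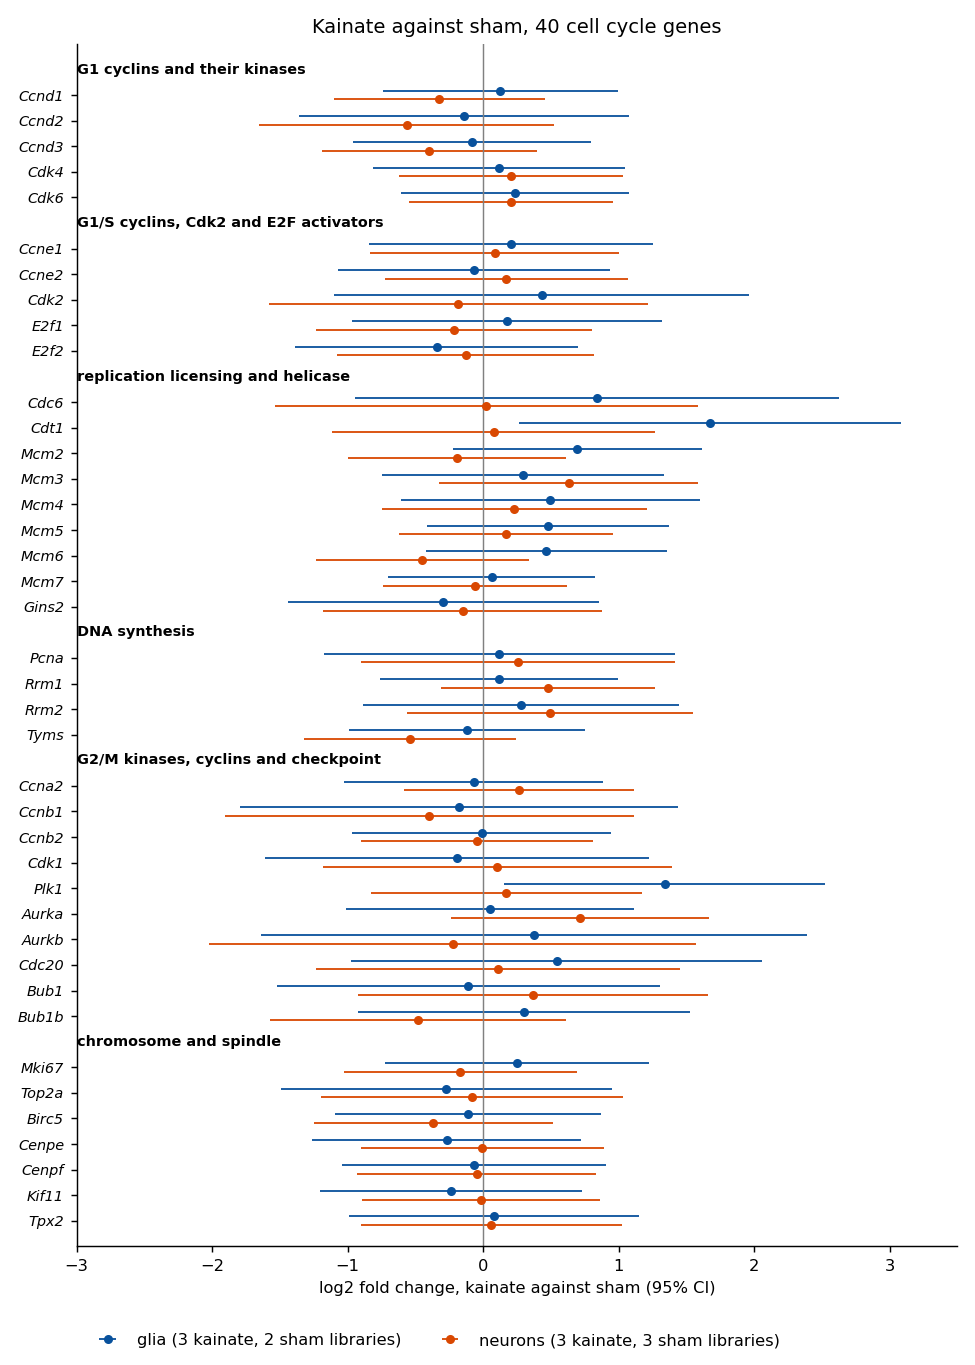
Log2 fold change of kainate against sham (points, x axis) with its 95% confidence interval (bars) for each of the 40 genes, in glia (blue, 3 kainate and 2 sham libraries) and neurons (orange, 3 and 3 libraries), grouped by role. The intervals of Cdt1 (0.27 to 3.08) and Plk1 (0.16 to 2.52) in glia are the 2 that do not reach 0, and neither gene is called after adjustment in this fit to group means, while Cdt1 is called with the replicate block (adjusted p = 0.0189).

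Licensing of replication origins held the member with the largest value in glia. Cdt1, which loads the Mcm helicase onto origins, lies at chr8:122568015-122573554 on the plus strand. In the order of replicates 1 to 3 (1 and 3 in sham glia), which holds for all values that follow, Cdt1 was at 10.8, 13.4 and 8.40 CPM in kainate glia, 3.71 and 3.12 in sham glia, 1.85, 4.13 and 3.20 in kainate neurons, and 1.01, 5.48 and 2.16 in sham neurons. Each kainate glia library was above both sham glia libraries, while the neuron libraries overlapped. The log2 fold change in glia was 1.67 ± 0.65 (SE, 95% interval 0.27 to 3.08), unadjusted p = 0.0232, and the p adjusted over all genes was 1, or 0.0189 with the replicate block. In neurons its log2 fold change was 0.08 (interval -1.11 to 1.27), and the difference between the effects in glia and neurons, 1.59 (interval -0.22 to 3.41), was not called. The value in glia ranged from 1.49 to 1.83 when single libraries were left out, and was 1.64 without both low-input libraries and 1.62 without both glia libraries of replicate 3.

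The Mcm proteins form the helicase that Cdt1 and Cdc6 load. Mcm2 was at 12.2, 19.3 and 14.6 CPM in kainate glia, 9.14 and 9.87 in sham glia, 7.83, 8.23 and 8.15 in kainate neurons, and 6.78, 14.0 and 6.80 in sham neurons. Kainate glia did not overlap with sham glia, with a log2 fold change of 0.69 (interval -0.22 to 1.61, adjusted p = 1), and in neurons the value was -0.19 (interval -0.997 to 0.61). Mcm3 was at 14.0, 19.7 and 11.4 CPM in kainate glia, 13.2 and 11.4 in sham glia, 1.28, 3.57 and 3.06 in kainate neurons, and 1.21, 2.096 and 1.81 in sham neurons. Mcm4 was at 33.6, 20.2 and 17.4 CPM in kainate glia, 25.2 and 8.53 in sham glia, 18.2, 15.4 and 8.74 in kainate neurons, and 14.8, 13.0 and 8.32 in sham neurons. For both, the glia groups overlapped, while for Mcm4 kainate was higher in both glia pairs, with a log2 fold change of 0.72 ± 0.29 (SE, adjusted p = 0.259) under the replicate block. In the role of licensing and helicase, which also takes in Cdc6, Mcm5, Mcm6, Mcm7 and Gins2 (a part of the helicase complex), 8 of 9 genes had a log2 fold change above 0 in glia, with a median of 0.48, and 5 of 9 in neurons, with a median of 0.02. None of the 9 was called in the fit to group means. Without sham glia replicate 3, Cdc6, the partner of Cdt1 in loading, had a log2 fold change of 3.16, with the median of all genes at 0.76. Sham glia was then the 1 low-input library with 9 reads of Cdc6. For Gins2, 67.3% of the exon bases are shared with the antisense gene Gse1, and as the kit does not mark strand, reads of the 2 genes cannot be told apart there.

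The genes of DNA synthesis did not separate with treatment in glia. Pcna, the clamp that holds DNA polymerase, was at 40.1, 13.7 and 14.4 CPM in kainate glia, 33.7 and 8.08 in sham glia, 18.0, 14.2 and 11.98 in kainate neurons, and 17.7, 10.2 and 9.06 in sham neurons. Its values in glia followed the replicate number, with the values of replicate 1 high in both treatments, and the log2 fold changes were 0.12 in glia (interval -1.18 to 1.42) and 0.26 in neurons (interval -0.90 to 1.42). Within the pairs of replicates 1 and 3, Pcna in glia was higher after kainate in both, and with the replicate block its log2 fold change was 0.54 ± 0.29 (SE, adjusted p = 0.561). Rrm1 and Rrm2 are the subunits of ribonucleotide reductase, which makes deoxynucleotides. Rrm1 was at 26.0, 26.8 and 13.9 CPM in kainate glia, 26.8 and 14.3 in sham glia, 16.4, 17.3 and 11.98 in kainate neurons, and 10.3, 11.5 and 10.99 in sham neurons. Every kainate neuron library lay above every sham neuron library, by a log2 fold change of 0.48 (interval -0.31 to 1.27, adjusted p = 1), while the glia groups overlapped. Rrm2 was at 4.01, 7.80 and 5.42 CPM in kainate glia, 4.09 and 5.40 in sham glia, 1.64, 2.12 and 4.19 in kainate neurons, and 1.68, 2.18 and 1.77 in sham neurons, with overlap in both cell types. Tyms, the thymidylate synthase, had between 14.0 and 32.6 CPM in all libraries.

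The D-type cyclins and their kinases, the entry point into G1, were expressed in every library. Ccnd1 was at 13.9, 20.2 and 12.8 CPM in kainate glia, 16.4 and 12.2 in sham glia, 5.69, 4.995 and 8.65 in kainate neurons, and 8.46, 6.58 and 9.15 in sham neurons. Ccnd2 was at 40.8, 33.5 and 20.3 CPM in kainate glia, 47.5 and 22.02 in sham glia, 97.1, 66.7 and 33.2 in kainate neurons, and 166, 54.6 and 70.7 in sham neurons. Ccnd3 was at 43.8, 35.7 and 24.2 CPM in kainate glia, 47.3 and 25.8 in sham glia, 16.1, 12.3 and 11.98 in kainate neurons, and 23.9, 13.4 and 15.96 in sham neurons. For all 3 cyclins the kainate and sham libraries overlapped within each cell type. Their log2 fold changes in glia were 0.13 for Ccnd1 (interval -0.74 to 0.996), -0.14 for Ccnd2 (interval -1.36 to 1.07) and -0.08 for Ccnd3 (interval -0.96 to 0.80), and in neurons -0.32, -0.56 and -0.40. In every same-numbered pair of neuron libraries, Ccnd1 and Ccnd3 were lower after kainate. Under the replicate block their log2 fold changes in neurons were -0.34 and -0.37 (adjusted p = 0.89 and 0.729). Sham neurons replicate 1 was the highest library for Ccnd2, and without it the log2 fold change in neurons was 0.07. Cdk4 was at 122, 104 and 72.2 CPM in kainate glia, 126 and 57.7 in sham glia, 153, 131 and 129 in kainate neurons, and 164, 83.3 and 111 in sham neurons. Cdk6 was at 24.7, 40.2 and 41.1 CPM in kainate glia, 29.6 and 30.5 in sham glia, 10.3, 15.5 and 21.8 in kainate neurons, and 12.4, 13.7 and 15.3 in sham neurons. The kinase values overlapped between treatments too, with log2 fold changes of 0.12 and 0.23 in glia and 0.21 and 0.21 in neurons for Cdk4 and Cdk6, and upper interval ends of 0.96 to 1.08. For Ccnd1 and Cdk4, 23.4% and 19.7% of the exon bases are shared with an antisense gene (LTO1 and Tspan31).

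Cyclin E and Cdk2 drive the step from G1 to S phase. Ccne1 was at 8.28, 5.77 and 4.83 CPM in kainate glia, 6.45 and 4.46 in sham glia, 29.1, 19.8 and 13.1 in kainate neurons, and 30.5, 15.5 and 12.4 in sham neurons. Ccne2 was at 14.7, 10.52 and 8.40 CPM in kainate glia, 15.98 and 7.54 in sham glia, 23.3, 17.4 and 10.2 in kainate neurons, and 18.3, 16.1 and 10.8 in sham neurons. Cdk2 was at 55.2, 25.3 and 16.9 CPM in kainate glia, 34.2 and 13.9 in sham glia, 1.42, 1.99 and 3.78 in kainate neurons, and 0.537, 3.56 and 3.96 in sham neurons. Within glia the treatments overlapped for all 3 genes, and the same held within neurons. E2f2, 1 of the activating E2F factors, was at 4.58, 5.19 and 7.64 CPM in kainate glia, 6.01 and 8.73 in sham glia, 2.42, 2.78 and 3.96 in kainate neurons, and 2.15, 4.11 and 3.74 in sham neurons, again with overlap. E2f1, the other activating factor among the 40, ranged from 3.06 to 7.32 CPM over the libraries. In this role 3 of 5 log2 fold changes were above 0 in glia (range -0.34 to 0.43) and 2 of 5 in neurons (range -0.21 to 0.17).

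The genes of G2 and mitosis were low in all libraries, and most showed no separation with kainate. Plk1, the polo-like kinase that starts mitosis, lies at chr7:122159439-122169873 on the plus strand and was at 3.32, 4.72 and 2.67 CPM in kainate glia, 1.02 and 1.79 in sham glia, 2.63, 4.21 and 3.96 in kainate neurons, and 3.42, 3.10 and 3.09 in sham neurons. Each kainate glia library was above both sham glia libraries, with a log2 fold change of 1.34 ± 0.55 (SE, interval 0.16 to 2.52), unadjusted p = 0.0293 and an adjusted p of 1. The sham glia values rested on 16 and 36 reads. The log2 fold change was 1.09 under the replicate block (adjusted p = 0.358), 0.76 without both low-input libraries and 1.87 without both glia libraries of replicate 3. Without kainate glia replicate 2, no member, Cdt1 and Plk1 included, had an unadjusted p below 0.05 in glia. In neurons Plk1 had a log2 fold change of 0.17 (interval -0.83 to 1.17), and the difference of 1.17 between the cell types (interval -0.36 to 2.69) was not called.

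Cdk1, the kinase that with cyclin B brings about mitosis, was at 3.26, 3.60 and 5.45 CPM in kainate glia, 1.73 and 7.64 in sham glia, 1.64, 1.68 and 2.93 in kainate neurons, and 1.01, 2.498 and 2.26 in sham neurons. Ccnb1, or cyclin B1, was at 3.14, 1.73 and 3.01 CPM in kainate glia, 3.26 and 2.68 in sham glia, 0.142, 0.510 and 1.13 in kainate neurons, and 0.403, 0.948 and 0.999 in sham neurons, and its lowest value, in kainate neurons replicate 1, rested on 2 reads. Ccna2, or cyclin A2, which acts in S phase and G2, was at 5.77, 4.38 and 4.69 CPM in kainate glia, 4.22 and 6.15 in sham glia, 14.1, 9.58 and 6.85 in kainate neurons, and 9.60, 9.59 and 6.22 in sham neurons. The treatments overlapped for all 3, and the log2 fold changes in glia were -0.19 for Cdk1 (interval -1.61 to 1.23) and -0.18 for Ccnb1 (interval -1.80 to 1.44), with 0.11 and -0.40 in neurons. For Cdk1 the value in glia depended on which sham glia library was kept: it was 1.24 without replicate 3, 0.90 without both glia libraries of replicate 3, and -0.87 without sham glia replicate 1. Aurka, the kinase of the spindle poles, was at 3.76, 4.72 and 4.52 CPM in kainate glia, 4.66 and 3.72 in sham glia, 4.05, 5.25 and 3.33 in kainate neurons, and 2.01, 3.68 and 1.998 in sham neurons. It had the largest log2 fold change of the 40 in neurons, 0.71 (interval -0.24 to 1.67, adjusted p = 1). Aurkb, the kinase of the chromosomal passenger complex, was at 2.95, 3.94 and 7.08 CPM in kainate glia, 1.02 and 6.15 in sham glia, 0.996, 2.62 and 2.25 in kainate neurons, and 0.201, 3.99 and 2.64 in sham neurons, with 3 reads in sham neurons replicate 1.

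Cdc20 activates the anaphase-promoting complex, and Bub1 belongs to the spindle checkpoint that holds it back. Cdc20 was at 5.58, 5.73 and 6.60 CPM in kainate glia, 3.58 and 4.61 in sham glia, 1.07, 2.68 and 4.73 in kainate neurons, and 0.671, 3.70 and 3.42 in sham neurons, with each kainate glia value above the sham glia values, at an unadjusted p of 0.454 and an adjusted p of 1. Bub1 was at 3.51, 2.24 and 5.17 CPM in kainate glia, 2.94 and 4.91 in sham glia, 0.783, 1.73 and 1.89 in kainate neurons, and 0.470, 1.46 and 1.45 in sham neurons, with overlap in both cell types. In every same-numbered pair Bub1 was higher after kainate. Under the replicate block its log2 fold change was 0.16 in glia and 0.40 in neurons (adjusted p = 0.998 and 0.978). Bub1b, another checkpoint gene, ranged from 2.56 to 10.54 CPM and Ccnb2, or cyclin B2, from 3.71 to 6.94 CPM. In the role of G2 and mitosis, 5 of 10 log2 fold changes were above 0 in glia (median 0.02) and 6 of 10 in neurons (median 0.11).

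Mki67 lies at chr7:135689784-135716361 on the minus strand and was at 10.8, 11.3 and 12.3 CPM in kainate glia, 5.88 and 13.4 in sham glia, 8.39, 11.2 and 14.9 in kainate neurons, and 8.33, 15.8 and 14.7 in sham neurons. The 3 kainate glia libraries lay between the 2 sham glia libraries. Its log2 fold change was 0.25 in glia (interval -0.72 to 1.22) and -0.17 in neurons (interval -1.03 to 0.69), and the difference, 0.42 (interval -0.88 to 1.72), was not called. Sham glia replicate 1 was the lowest library, and without it the value in glia was -0.20, against 0.95 without sham glia replicate 3. Top2a, the topoisomerase that untangles chromosomes, was at 10.7, 10.48 and 14.6 CPM in kainate glia, 12.3 and 16.6 in sham glia, 1.92, 4.69 and 5.22 in kainate neurons, and 1.41, 6.17 and 4.93 in sham neurons. Its kainate and sham values overlapped in both cell types, with log2 fold changes of -0.27 in glia (interval -1.49 to 0.95) and -0.08 in neurons (interval -1.20 to 1.03).

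The other genes of chromosomes and spindle showed the same lack of separation with kainate. Cenpe, a kinetochore motor, was at 6.40, 7.30 and 11.9 CPM in kainate glia, 6.77 and 13.8 in sham glia, 4.48, 5.48 and 6.35 in kainate neurons, and 3.96, 5.89 and 6.51 in sham neurons. Cenpf, another kinetochore protein, was at 9.16, 8.14 and 11.4 CPM in kainate glia, 10.48 and 9.52 in sham glia, 3.84, 2.62 and 5.09 in kainate neurons, and 2.69, 3.65 and 5.54 in sham neurons. In this role, 2 of 7 log2 fold changes were above 0 in glia and 1 of 7 in neurons, with medians of -0.11 and -0.05. Kif11, the motor that pushes the spindle poles apart, was at 7.84, 4.31 and 7.33 CPM in kainate glia, 6.65 and 8.63 in sham glia, 2.56, 2.83 and 3.29 in kainate neurons, and 2.62, 3.33 and 2.84 in sham neurons. Tpx2, which activates Aurka at the spindle, was at 5.58, 5.63 and 6.63 CPM in kainate glia, 4.73 and 6.55 in sham glia, 1.57, 3.95 and 3.15 in kainate neurons, and 2.35, 3.36 and 2.64 in sham neurons. Birc5, or survivin, of the chromosomal passenger complex, ranged from 3.13 to 6.15 CPM over the 11 libraries.

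**Figure D3:**
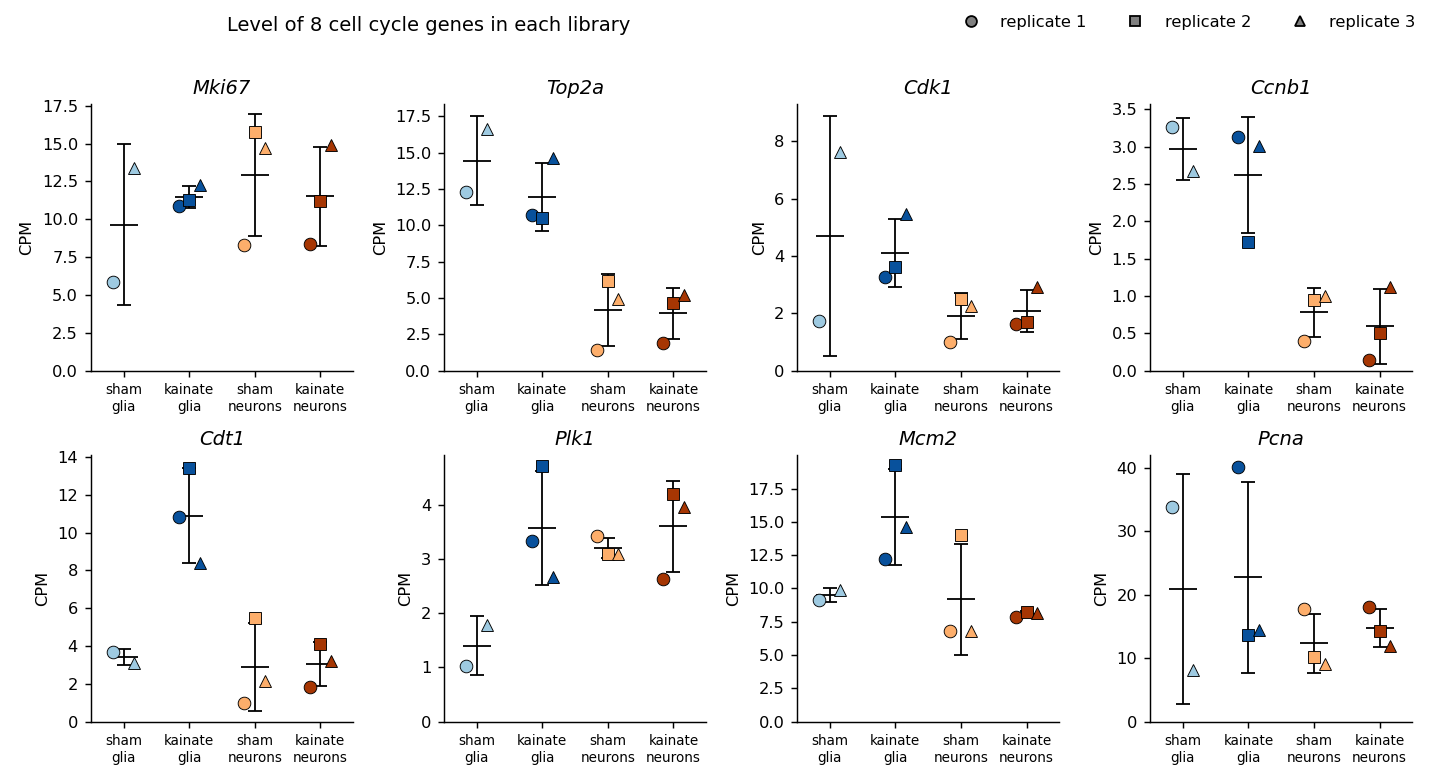
CPM (y axis, from 0, separate for each panel) of 8 cell cycle genes in each library, by group (x axis), with the replicate number as the shape of the point; horizontal lines are group means and bars the SD (n = 3, or 2 for sham glia). Cdt1, Plk1 and Mcm2 have all kainate glia points above the sham glia points, while Mki67, Top2a, Cdk1, Ccnb1 and Pcna overlap between treatments.

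The mitotic genes were also set against genes that the hippocampus is not known to use. The 17 members of the roles of G2 and mitosis and of chromosomes and spindle had a mean level of 0.634 to 0.914 CPM per kb of exon in neurons and 0.869 to 1.41 CPM per kb in glia. The 2 highest libraries were kainate and sham glia of replicate 3, at 1.36 and 1.41 CPM per kb, and these 2 also had the highest chemosensory level. As a description over 11 libraries that share depth and input between the axes, Pearson's r between the log2 level of a gene and the log2 chemosensory level was 0.96 for Cdk1, 0.90 for Cenpe, 0.86 for Aurkb, 0.61 for Mki67 and 0.06 for Plk1. Ccna2 had the lowest r of the 17 members, -0.46. Per kb, Cdk1 was at 1.98 to 3.94 times the mean chemosensory level in the 11 libraries, Mki67 2.19 to 10.0 times, Cenpf 1.15 to 7.66 times and Ccnb1 0.29 to 8.72 times. Cdk4, the member with the highest level per kb (means of 39.6 CPM per kb in neurons and 29.6 in glia), was at 33.0 to 614 times that level. What share of the mitotic counts has the same source as the chemosensory counts was not tested.

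**Figure D4:**
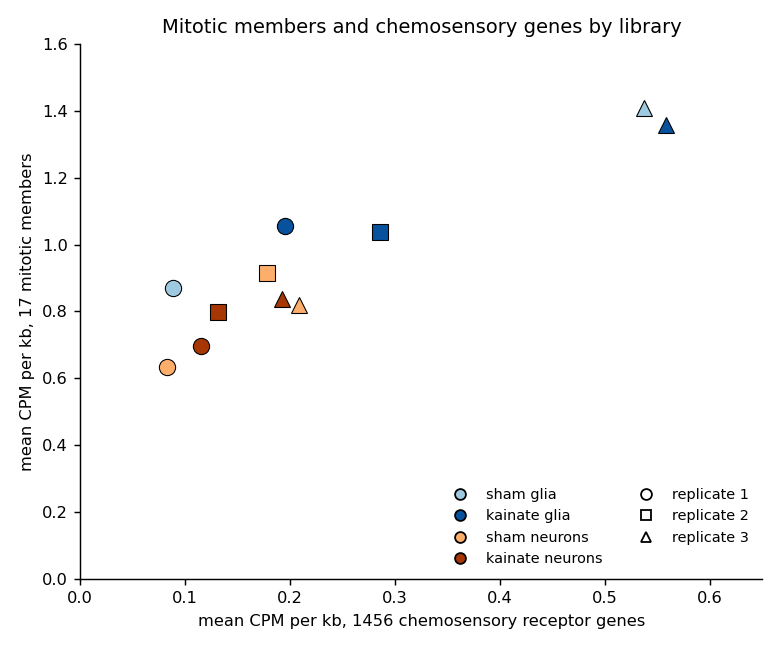
Mean CPM per kb of exon of the 17 mitotic members (y axis) against that of 1456 chemosensory receptor genes (x axis), with 1 point per library, colours for groups and shapes for replicate numbers. The 2 glia libraries of replicate 3 lie at the upper right (0.54 and 0.56 on the x axis), 1 from each treatment, and sham glia replicate 1 lies at 0.09.

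Members whose log2 level followed that of Mki67 most closely over the 11 libraries were Cdc6 (Pearson's r 0.80), Aurkb (0.66), Birc5 (0.53), Plk1 (0.53) and Cdk1 (0.52), a description only, since the libraries also share depth and input.

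Between the cell types the 40 genes differed far more than between treatments. NeuN+ against NeuN- nuclei, over both treatments, gave 3 members higher in neurons (Ccne1, Ccnd2 and Ccna2) and 19 lower at an FDR below 0.25 by edgeR, beside 16.8% and 20.4% of all genes tested. The median log2 fold change of the 40 was -0.66, and that of all genes was -0.47. For 2 members (Ccne1 and Ccna2) all neuron libraries were above all glia libraries and for 12 members below them, beside 8.92% and 6.31% of all genes. With the pool of hippocampi as a block, 6 members were higher and 23 lower in neurons, together beside 59.7% of all genes called in that fit. Without both glia libraries of replicate 3, 4 members were higher and 17 lower, beside 21.1% and 17% of all genes. In that setting the median log2 fold change of all genes was 0.20 and that of the 40 was -0.46, so that the median of all genes changed its sign and that of the members did not.

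Among the cyclins and kinases of G1 and S phase, Ccne1 was higher in neurons by a log2 fold change of 1.77 ± 0.34 (SE, adjusted p = 0.00179) and Ccnd2 by 1.27 ± 0.39 (adjusted p = 0.0387). Cdk2 had the lowest log2 fold change of the 40, -3.44 ± 0.51 (adjusted p = 0.000230), with 0.54 to 3.96 CPM in neurons and 13.9 to 55.2 CPM in glia. Ccnd1, Ccnd3, Cdk6 and E2f2 were lower too, at -1.05, -1.20, -1.14 and -1.03. So cyclin D2 and cyclin E1 were higher in neurons while the other D-type cyclins, Cdk2 and Cdk6 were higher in glia. Cdk4, Ccne2 and E2f1 were not called. With the pool as a block, Cdk4 was higher (0.58, adjusted p = 0.0232), as was Ccne2 (0.46, 0.094).

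Of the genes of replication, Mcm3 was lower in neurons, at a log2 fold change of -2.66 ± 0.34 (SE, adjusted p = 7.78e-05), with 1.21 to 3.57 CPM in neurons against 11.4 to 19.7 in glia. The other 5 Mcm genes had log2 fold changes of -0.62 to -0.04, of which 1, Mcm4, was called at -0.62 and an adjusted p of 0.245. Cdt1, Rrm1 and Rrm2 were lower at -1.02, -0.73 and -1.22. Pcna, Mcm2, Mcm5, Mcm6, Mcm7, Cdc6, Gins2 and Tyms were not called. With the pool as a block, Mcm2 (-0.70, adjusted p = 0.0257) and Pcna (-0.42, 0.206) were lower too, and Cdt1 (-1.50, 0.00341), Rrm1 (-0.69, 0.0289) and Mcm4 (-0.58, 0.0501) had smaller adjusted p-values than without it. With low input as a covariate the calls of Cdt1 (-0.85, adjusted p = 0.254), Rrm1 (-0.42, 0.340) and Mcm4 (-0.38, 0.534) were lost. Those of Rrm1 (-0.36, adjusted p = 0.415) and Mcm4 (-0.15, 0.765) were also lost without both low-input libraries, and that of Mcm4 without a filter on low counts (-0.66, 0.274). The calls of Mcm4 and Rrm1 were also lost when single libraries were left out. Without sham glia replicate 1, Rrm1 was at -0.44 (adjusted p = 0.259) and Mcm4 at -0.10 (0.822), and Mcm4 was also lost without 7 others, that is replicates 2 and 3 of kainate neurons, all replicates of sham neurons, and replicates 1 and 2 of kainate glia, at log2 fold changes of -0.70 to -0.47.

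Of the mitotic genes, Ccna2 was higher in neurons by 0.87 ± 0.30 (SE, adjusted p = 0.0655), and 9 were lower. These were Ccnb1 (-2.004), Top2a (-1.68), Bub1 (-1.54), Cenpf (-1.32), Kif11 (-1.27), Cdk1 (-1.13), Tpx2 (-1.02), Cdc20 (-0.86) and Cenpe (-0.78), all as log2 fold changes. Mki67 was not among them, with a log2 fold change of 0.22 (interval -0.43 to 0.86) and 8.33 to 15.8 CPM in neurons against 5.88 to 13.4 in glia. Plk1, Aurka, Aurkb, Bub1b, Birc5 and Ccnb2 were not called either. With the pool as a block, Aurkb (-1.40, adjusted p = 0.00856) and Aurka (-0.55, 0.138) were lower and Plk1 higher (0.63, 0.141), and the calls of Cdk1 (-1.16, 0.0128), Cenpe (-0.77, 0.0249) and Cdc20 (-1.27, 0.0279) held. Without sham glia replicate 3, Cdk1 was at -0.40 (adjusted p = 0.629) and Cenpe at -0.47 (0.429). Without both glia libraries of replicate 3, Cdk1 (-0.32, adjusted p = 0.680), Cenpe (-0.38, 0.478) and Cdc20 (-0.75, 0.422) were not called. Cdc20 was called at an adjusted p of 0.241 and was lost without any 1 of 6 libraries (replicates 1 and 2 of kainate neurons, replicate 1 of sham neurons, replicates 1 and 2 of kainate glia and replicate 3 of sham glia), at -0.88 to -0.64, as well as with low input as a covariate (-0.94, adjusted p = 0.267) and without a filter on low counts (-0.80, 0.330). Per kb, the 9 lower genes were also set against the mean chemosensory level of each library. The medians in neurons and glia were 1.15 and 1.44 times for Ccnb1, 2.82 and 4.07 for Top2a, and 1.74 and 2.13 for Bub1. They were 1.72 and 1.85 for Cenpf, 2.72 and 2.88 for Cdk1, 3.77 and 4.21 for Tpx2, and 9.84 and 10.7 for Cdc20. For Kif11 (2.7 and 2.15) and Cenpe (4.19 and 2.98) the median was higher in neurons. The part of that level in these differences was not tested. Exon bases shared with an antisense gene are 12.5% for Ccna2 (Exosc9) and 17.4% for Ccne2 (Ints8).

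**Figure D5:**
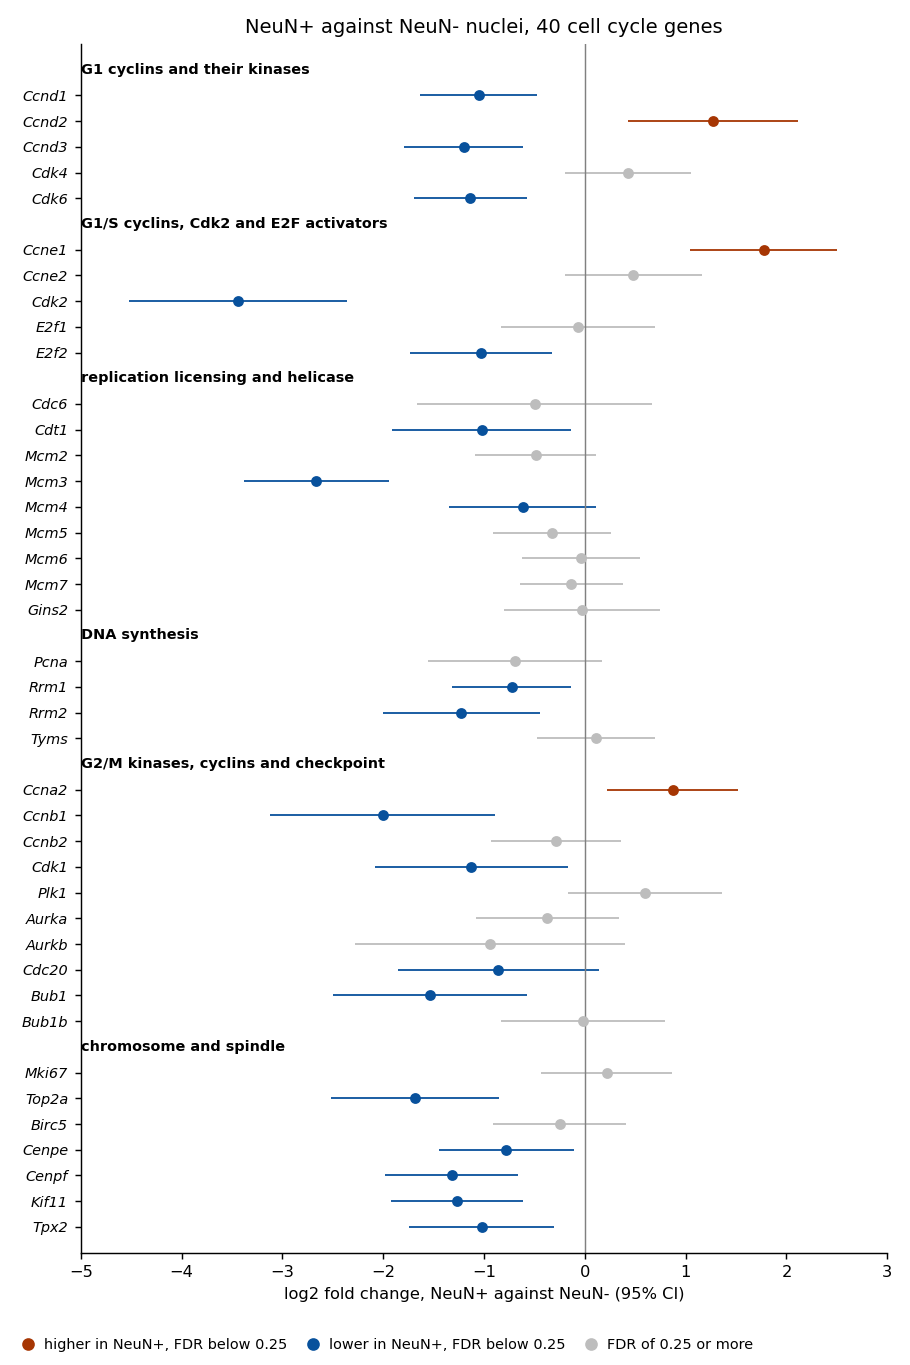
Log2 fold change of NeuN+ against NeuN- nuclei over both treatments (points, x axis) with its 95% confidence interval (bars) for the 40 genes by role; brown and blue mark genes higher and lower in NeuN+ at an FDR below 0.25, and grey the 18 genes not called. Cdk2 (-3.44) and Mcm3 (-2.66) lie farthest to the left, and Ccne1 (1.77) farthest to the right.

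A test of the difference between the kainate effects in glia and neurons called 0 of the 40 genes by edgeR, beside 0.00246% of all genes. By edgeR, 0 had an unadjusted p below 0.05, beside 0.909% of all genes. DESeq2 also called 0 of the 40, beside 7 higher and 20 lower of all 40714 genes. The differences ran from -0.66 (Aurka) to 1.59 (Cdt1) on the log2 scale, with a median standard error of 0.655. The blocks by replicate number and by pool also called 0, beside 1.94% and 0.0221% of all genes. At an unadjusted p below 0.05, 3 members had a higher value in glia with the block by replicate number, that is Cdt1 (1.23), Bub1b (1.06) and Mcm6 (0.99), and 2 with that by pool, beside 6.49% and 2.67% of all genes in either direction.

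Genes around the core of the cycle were counted from lists of named genes. Of 15 restraints on the cycle (inhibitors of cyclin-dependent kinases, pocket proteins, and Trp53, Ccng1, Btg1, Btg2 and Tob1, which are linked to p53 or to growth arrest), 15 E2F and DREAM regulators, 30 other genes of S phase and 48 other genes of mitosis, edgeR called 0 in glia and 0 in neurons in the fit of all 11 libraries. At an unadjusted p below 0.05 there were 1, 0, 0 and 0 higher and 0, 0, 0 and 1 lower in glia for these 4 lists in turn, and 2, 0, 1 and 2 higher and 0 lower in neurons, beside 1.35% of all genes higher and 0.695% lower in glia and 1.46% and 0.626% in neurons. With the replicate block, 3, 1, 0 and 0 were higher and 0, 0, 0 and 2 lower in glia, and 2, 1, 1 and 2 higher and 0, 0, 0 and 2 lower in neurons, in a fit that called 2.93% of all genes higher and 2.86% lower in glia and 3.19% and 1.9% in neurons. The 0 in neurons depended on the fit. Fitted on the neuron libraries alone, where 14 of the 15 restraints and 47 of the 48 genes of mitosis passed the filter, 2, 0, 1 and 1 genes of the 4 lists were higher and 0 lower, which were Cdkn1a (log2 fold change 2.53, adjusted p = 0.0184), Btg2 (1.81, 0.092), Dtl (1.16, 0.106) and Kif18a (1.55, 0.151), beside the 1.07% and 0.218% of all genes given above. Fitted on the glia libraries alone, 0 were called. Median log2 fold changes of the 4 lists were -0.08 to 0.06 in glia and -0.14 to 0.11 in neurons. Cdkn1a, which encodes the cycle inhibitor p21, was at 344, 67.4 and 89.2 CPM in kainate glia, 70.7 and 12.6 in sham glia, 25.9, 23.4 and 23.0 in kainate neurons, and 6.38, 3.47 and 3.03 in sham neurons. Kainate neurons lay above sham neurons in every library, at a log2 fold change of 2.499 (adjusted p = 0.588), and in glia, where the groups overlapped, the value was 2.004 (adjusted p = 1). Btg2, which holds cells back from dividing, was at 120, 80.4 and 47.8 CPM in kainate glia, 53.0 and 16.9 in sham glia, 169, 171 and 76.7 in kainate neurons, and 61.9, 32.3 and 25.2 in sham neurons, with log2 fold changes of 1.80 in neurons (adjusted p = 0.768) and 1.24 in glia (adjusted p = 1). With the replicate block, Cdkn1a and Btg2 were called in both cell types, at log2 fold changes of 2.57 and 1.82 in neurons (adjusted p = 4.81e-13 and 1.29e-09) and 2.55 and 1.34 in glia (1.05e-10 and 0.000148). These p-values rest on 3 pairs in neurons and 2 in glia, with a spread that edgeR pools over genes. The third gene higher in glia with the block was Btg1, a relative of Btg2, at 0.78 (adjusted p = 0.0554). Rbl1, the pocket protein p107, had the next smallest p in the fit to group means, at 0.64 in neurons and -0.54 in glia, and was called in neither fit.

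Among the E2F and DREAM regulators, the genes with the smallest p were Tfdp1 (0.52), Mybl1 (0.44) and E2f4 (0.33) in glia and E2f3 (0.57), Tfdp1 (0.51) and E2f4 (0.46) in neurons, as log2 fold changes, each with an adjusted p of 1. For S phase they were Dut (-0.50), Chaf1b (0.85) and Dtl (0.48) in glia and Dtl (1.17), Orc1 (-0.61) and Dbf4 (0.56) in neurons. Dtl, which marks Cdt1 for destruction in S phase, was at 16.4, 18.8 and 26.5 CPM in kainate glia, 7.86 and 21.6 in sham glia, 33.2, 24.5 and 23.1 in kainate neurons, and 12.3, 11.9 and 11.7 in sham neurons, so that its kainate neuron values lay above the sham values, at an adjusted p of 1, or 0.000705 with the replicate block. For mitosis they were Cdc25b (-1.01), Anln (-1.13) and Cdc25a (0.60) in glia and Kif18a (1.55), Racgap1 (0.70) and Cdc25b (-0.74) in neurons. Kif18a, a kinesin of chromosome alignment, was at 10.8, 12.3 and 12.4 CPM in kainate glia, 10.4 and 9.87 in sham glia, 11.5, 11.01 and 14.2 in kainate neurons, and 3.09, 5.20 and 4.16 in sham neurons, so that kainate lay above sham in both cell types, and its adjusted p in neurons was 0.266, or 7.9e-05 with the block.

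Of 18 further CDKs and cyclins, 1 was upregulated in neurons and 0 were called in glia, beside 0.165% and 0.101% of all genes tested. Cdk18, a kinase of the PCTAIRE family, was at 127, 144 and 82.1 CPM in kainate glia, 215 and 86.6 in sham glia, 189, 285 and 215 in kainate neurons, and 51.8, 33.4 and 41.3 in sham neurons. All kainate neuron libraries were above all sham neuron libraries, at a log2 fold change of 2.45 ± 0.42 (SE, adjusted p = 0.0956). In glia the groups overlapped, at -0.36 (adjusted p = 1), and the difference between the cell types, -2.80, was not called in the fit to group means (adjusted p = 1) but was with the replicate block (adjusted p = 2.03e-08). Fitted on the neuron libraries alone, Cdk18 was again the 1 gene called in neurons, at 2.46 (adjusted p = 0.00711), beside 1.07% of all genes higher and 0.218% lower. With the replicate block, which called 3.19% of all genes higher and 1.9% lower in neurons, a second gene was called in neurons. This was Cdk14, a kinase of the PFTAIRE family, which was lower at a log2 fold change of -0.78 (adjusted p = 0.00586). It was at 186, 207 and 120 CPM in kainate neurons and 313, 267 and 281 in sham neurons, so that the kainate values all lay below the sham values, while without the block its log2 fold change was -0.74 (adjusted p = 1). Next in order were Ccnl1 (0.45) in neurons and Cdk5 (-0.65) and Ccnh (-0.57) in glia.

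Markers of the cell types in glia, some of which can divide, are given beside the cycle genes. Of all genes in glia, the fit to group means called 0.101%, and the replicate block called 2.93% higher and 2.86% lower. Among the 6 markers of oligodendrocyte precursors, 0 of 6 log2 fold changes were above 0 in glia, with a median of -0.97, 0 were called in the fit to group means and 5 were lower with the replicate block. Their summed level was 625 to 2640 CPM in kainate glia and 1390 and 4530 CPM in sham glia. Among the 6 microglial markers 0 of 6 were above 0, with a median of -0.79 and sums of 559 to 1571 CPM in kainate glia and 614 and 3171 CPM in sham glia, and 2 were lower with the block, P2ry12 among them at -2.099 (adjusted p = 1.38e-08). For the 6 oligodendrocyte markers, 0 of 6 were above 0 (median -0.79) and 4 were lower with the block. Astrocyte markers were split, with 3 of 6 above 0, Gfap at 1.86 and Gja1 at -1.50 in glia, and with the block 1 was higher and 3 lower.

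Nes, which encodes nestin of progenitors and reactive astrocytes, was at 40.5, 46.4 and 46.4 CPM in kainate glia, 6.52 and 15.4 in sham glia, 1.57, 8.54 and 16.5 in kainate neurons, and 0.806, 6.75 and 7.83 in sham neurons, so that kainate glia lay above sham glia, at a log2 fold change of 2.02 (adjusted p = 1, or 2.7e-06 with the block). Of the 6 markers of progenitors and immature neurons, 2 of 6 were above 0 in glia and 3 of 6 in neurons. The 6 endothelial markers summed to 22.9 to 38.4 CPM in glia and 8.96 to 24.2 in neurons, and the 6 pericyte markers to 47.7 to 153 and 8.33 to 26.5 CPM. For 8 genes of blood leukocytes the sums were 74.1 to 96.0 CPM in glia and 4.70 to 20.04 CPM in neurons, and in glia most of it was Ptprc, which microglia also express, while S100a8 was at 0 in 8 of 11 libraries. None of the genes of these 3 lists was called in the fit to group means, beside 0.101% of all genes in glia and 0.165% in neurons. With the replicate block 1, the pericyte marker Vtn, was lower in glia (-1.02, adjusted p = 0.0397), beside 2.86% of all genes. In neurons fitted alone, the markers called were Gfap (1.96, adjusted p = 0.125) and Sox11 (1.52, 0.125), both higher, beside 1.07% of all genes higher. How far the makeup of the cells contributed to the values of the 40 genes was not tested.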

How the data were processed

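Nuclear mRNA of sorted nuclei was sequenced in 11 libraries. The deposited values are raw counts per gene, which the authors made by trimming with Trim Galore (version 0.4.3) and by aligning to mm10 and counting with Rsubread and featureCounts on the GENCODE annotation. Symbols were matched by Ensembl gene ID. The 105 genes without one, and genes that failed the filter, did not count towards the library sizes of the fit. Genes passing the edgeR filter (minimum count of 10, minimum total of 15) were fitted in 1 model over the 4 groups with TMM factors and edgeR's quasi-likelihood test (edgeR 4.0.16, limma 3.58.1, R 4.3.3), with Benjamini-Hochberg adjusted p-values over all genes tested and a call at an FDR below 0.25. DESeq2 1.42.0 was an alternative. Exon lengths came from a later GENCODE release. Scripts were tested on simulated data. For kainate against sham, p-values of the fit to group means measure the spread between pools of mice, which in glia includes the difference in RNA input. For NeuN+ against NeuN- and for the difference, that fit treats both fractions of a pool as independent, although they deviated together (r of 0.24 to 0.67). The pool block measures the spread within pools instead.

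Same-numbered kainate and sham libraries deviated together (r of 0.64, 0.16 and 0.49 in neurons and 0.76 and 0.79 in glia). Same-numbered libraries that differed in both treatment and cell type did so too, at r of 0.188 to 0.613. With 2 sham glia libraries, deviations from the group mean are mirror images, so the 2 glial values are not independent. Libraries of different numbers were not compared, and the study names no pairing of kainate with sham. The block therefore assumes that the numbers pair the samples. The glial block rests on 2 pairs, since kainate glia replicate 2 has no partner. The block fits more terms to the same libraries than the fit to group means, which has 7 residual degrees of freedom. Its small p-values thus lean on the spread that edgeR pools over genes, and not on the pairs alone. Of the 40 genes, values per library are given for those called between the cell types, those called only with the pool as a block, and Mki67. Members and lists were chosen with earlier results of these data known. Bisulfite data of the same nuclei were not used here.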

Additional observations from a re-analysis of the deposited data

How the results depend on the processing

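The number of members called for kainate against sham was 0 in glia, and 1 with the replicate block, Cdt1. The setting without both glia libraries of replicate 3 was chosen after seeing the data. Leaving out single libraries changed the number in glia only without sham glia replicate 3, through Cdc6, in a fit with 1 sham glia library. The range was 0 to 0 in neurons and for the difference, and 20 to 26 for NeuN+ against NeuN-. The block changed no other call of a member for kainate. Of 91 recomputed counts of members called, 2 moved by more than 1.5 times. Among 23 genes recomputed between the cell types, those called and Mki67, 0 changed direction, while over all 40 the number above 0 ran from 7 to 12 across the settings, against 8.

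Kainate log2 fold changes were recomputed in every setting for 13 genes per cell type, and those that changed direction had not been called. Other members near 0 changed sign too, such as Bub1 in glia (-0.11, and 0.16 with the replicate block). Of the 13 genes in glia, direction changed for Mki67 at -0.19, Ccnb1 at 0.22, Ccnd2 at 0.50 and Ccnd3 at 0.42 without both low-input libraries, Ccnd2 at 0.040 and Ccnd3 at 0.045 with low input as a covariate, Cdk1 at 0.14, Ccnb1 at 0.058 and Ccnd1 at -0.087 with the replicate block, and Pcna at -0.40, Cdk1 at 0.90, Ccnd1 at -0.04 and Cdk4 at -0.24 without both glia libraries of replicate 3. Over single libraries left out, values in glia ran from -0.20 to 0.95 for Mki67, -0.72 to 1.52 for Pcna, -0.87 to 1.24 for Cdk1, -0.45 to 0.051 for Ccnb1 (-0.51 without both glia libraries of replicate 3), -0.10 to 0.38 for Ccnd1, -0.60 to 0.54 for Ccnd2, -0.46 to 0.45 for Ccnd3, -0.35 to 0.81 for Cdk4 and -0.05 to 0.35 for Cdk6. In neurons they ran from -0.40 to 0.013 for Mki67, -0.48 to 0.31 for Top2a, -0.37 to 0.25 for Mcm2, -0.22 to 0.34 for Cdk1, -1.19 to 0.028 for Ccnb1, -0.96 to 0.068 for Ccnd2 and -0.091 to 0.44 for Cdk6. The cause was not tested. Depth limits the mitotic genes, down to 2 reads for Ccnb1 and 3 for Aurkb in 1 library each, and sham glia has 2 libraries.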
